A study of Homo sapiens with 132 samples.

Results

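MKN1 cells treated with EGF for 4 h were compared with untreated MKN1 cells across all genes. MKN1 is an established cell line from a metastatic site of a gastric carcinoma, and the study describes it as responsive to cetuximab, an antibody against EGFR. The 6 libraries were taken by their labels (MKN1, 4 h, EGF at 5 ng/ml or no treatment, 3 replicates each) from the 132 libraries of the series, which also cover other cell lines, drugs and a 24 h time point. Both groups were kept in RPMI medium with 10% FCS that was changed 2 h before treatment, so untreated cells also had serum. The replicates are described as biological triplicates of this single line, and p-values measure the spread between those cultures.

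EGF binds the receptor tyrosine kinase EGFR, which signals through RAS, RAF, MEK and ERK and through PI3K and AKT to transcription factors. The transcriptional response of epithelial cells is known to run in waves. Immediate early transcription factors come first, and delayed genes follow, among them inhibitors of the same pathway, further EGFR ligands, cytokines, proteases and matrix proteins.

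The libraries held 39005311 to 69434151 counts on genes, and 3 counts, taken as the lowest level a library can show, corresponded to 0.0432 to 0.0769 CPM (counts scaled to a common library size, counting error only). Of the epithelial markers, KRT8 was at 11030 to 12380 CPM, whereas CDH1 and CLDN7 did not exceed 2.12 and 1.56 CPM. Of 12 gastric mucosa markers, 7 stayed under 1 CPM in all 6 libraries, and GKN2 and SOX2 were at 0. Of markers of other cells, 4 of 6 for blood, 2 of 6 for fibroblasts and 2 of 4 for endothelium stayed under 1 CPM. The summed fibroblast markers, mostly LUM, were at 74.4 to 109.7 CPM in untreated and at 69.2 to 96.8 CPM in EGF libraries. No member of these 5 marker lists was regulated, next to 1.98% of all genes tested.

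After 4 h of EGF, 306 genes were higher and 86 genes were lower than in untreated cells, out of 19815 genes tested. A gene was called regulated at a Benjamini-Hochberg adjusted p below 0.05 in edgeR's quasi-likelihood test together with a log2FC above 1 or below -1, with same-numbered libraries kept as pairs. The regulated genes were 1.98% of those tested, 1.54% higher and 0.434% lower. Without the limit on the fold change, 1946 genes (9.82%) were higher and 1422 genes (7.18%) lower. With TMM normalization 78.1% of the regulated genes were higher. With scaling by library size alone this share was 60.8% (247 higher and 159 lower), and the median log2FC of all genes moved by -0.11, so that differences not much larger than this depend on the scaling.

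The higher and the lower genes differed in their levels. Of the 306 higher genes, 167 had a mean log2 CPM above 1 over the 6 libraries, and each of the 167 moved the same way in the 3 pairs. Of all 19815 genes tested, 12258 were above that level. Of the 86 lower genes, 16 reached that level, and these also moved the same way in the 3 pairs. The remaining 139 higher and 70 lower genes were at a mean log2 CPM of 1 or less. Protein-coding genes made up 264 of the 392 regulated genes, next to 64 lincRNA, 26 antisense and 21 pseudogenes. The strand setting of the counting is not given in the sources used here, so reads of an antisense gene and its partner may not have been told apart. In bulk RNA, a change in all cells and a change in a share of the cells cannot be told apart.

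**Figure D1:**
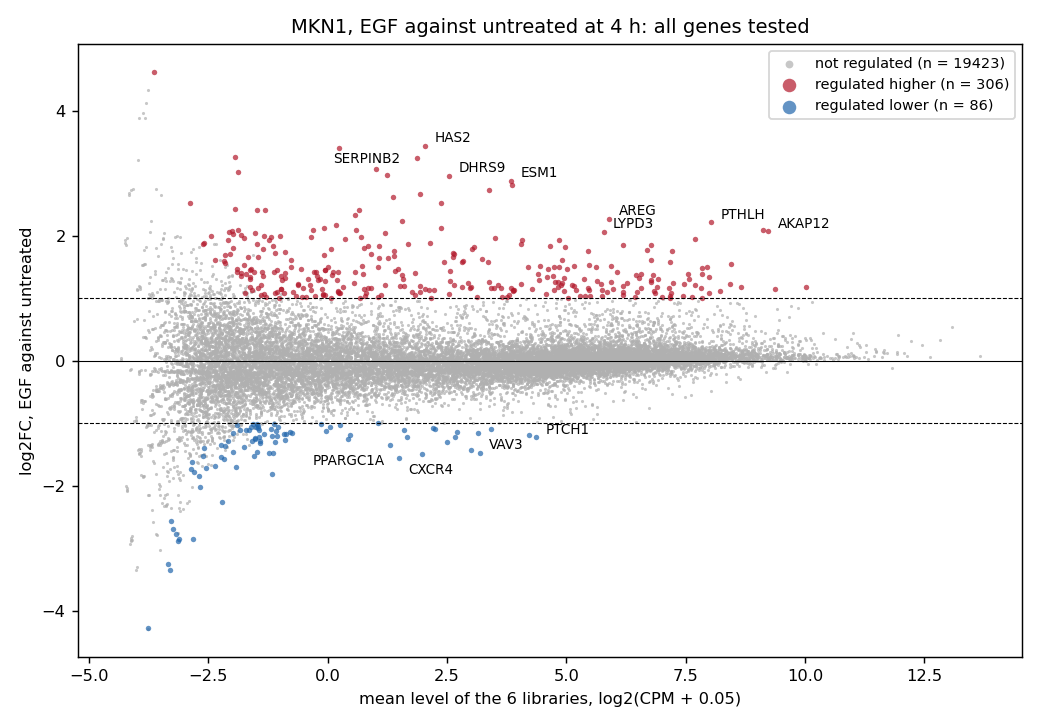
Each point is 1 of 19815 genes, at its mean level in the 6 libraries as log2(CPM + 0.05) on the x axis and its log2FC of EGF against untreated on the y axis, with dashed lines at 1 and -1. The 306 higher genes (red) extend over the whole range of levels, while 70 of the 86 lower genes (blue) have a mean log2 CPM of 1 or less.

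Promoters were read from RefSeq (GRCh38.p14, 250 bases before to 50 bases after the annotated start), which held 12182 of the 19815 genes, 174 of the 306 higher genes and 42 of the 86 lower genes. The AP-1 site TGACTCA, bound by dimers of the FOS and JUN families, stood on either strand in 20 of the 174 promoters of higher genes (11.5%), in 3 of the 42 of lower genes (7.14%) and in 3.57% of all 12182. A match to the NF-kB site stood in 24 of the 174 (13.8%) and in 6.74% of all promoters. For the ETS site CGGAAGT, the share was 3.45% in higher genes and 11.1% in all promoters. The CRE TGACGTCA stood in 1.72% against 2.91%, the EGR site GCGTGGGCG in 1.72% against 1.21%, and the CArG box, bound by SRF, in 2.30% against 1.07%. These shares describe letters in a window and were not tested.

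The 250 bases before the start of 6 genes are shown 5′ to 3′ on the strand of the gene, with the matches in capitals, because these genes recur below and cover 4 of the motifs. AREG, an EGFR ligand gene, has a CRE, and LAMA3, a laminin gene, has AP-1 sites at 2 positions. AKAP12, a kinase scaffold gene, has a CArG box. The chemokine gene CXCL8 has an AP-1 site, and the chemokine gene CXCL1 has an NF-kB site. VAV3, which was lower, has an AP-1 site as well. For LAMA3 and VAV3, the start given by RefSeq lies inside the gene as GENCODE draws it.
AREG, chr4:74444886-74445135, plus strand: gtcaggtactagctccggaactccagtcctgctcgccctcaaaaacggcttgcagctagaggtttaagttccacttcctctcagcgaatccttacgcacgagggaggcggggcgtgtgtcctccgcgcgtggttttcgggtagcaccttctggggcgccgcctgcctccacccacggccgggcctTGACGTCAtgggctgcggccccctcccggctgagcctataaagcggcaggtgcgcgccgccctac
LAMA3, chr18:23872770-23873019, plus strand: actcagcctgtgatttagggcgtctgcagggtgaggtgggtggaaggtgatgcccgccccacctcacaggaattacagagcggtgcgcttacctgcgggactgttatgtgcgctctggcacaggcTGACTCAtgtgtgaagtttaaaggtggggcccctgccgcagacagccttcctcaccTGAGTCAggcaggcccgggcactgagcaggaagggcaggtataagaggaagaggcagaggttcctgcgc
AKAP12, chr6:151239717-151239966, plus strand: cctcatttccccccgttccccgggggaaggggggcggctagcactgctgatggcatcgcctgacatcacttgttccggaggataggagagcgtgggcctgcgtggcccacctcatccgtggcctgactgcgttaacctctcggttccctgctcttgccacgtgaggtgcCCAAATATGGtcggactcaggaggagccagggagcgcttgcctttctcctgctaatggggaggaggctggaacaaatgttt
CXCL8, chr4:73740319-73740568, plus strand: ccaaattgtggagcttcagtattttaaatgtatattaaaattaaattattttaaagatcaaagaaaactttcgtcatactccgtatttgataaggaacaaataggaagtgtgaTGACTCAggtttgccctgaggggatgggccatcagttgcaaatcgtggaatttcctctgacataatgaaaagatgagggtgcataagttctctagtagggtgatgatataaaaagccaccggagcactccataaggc
CXCL1, chr4:73869143-73869392, plus strand: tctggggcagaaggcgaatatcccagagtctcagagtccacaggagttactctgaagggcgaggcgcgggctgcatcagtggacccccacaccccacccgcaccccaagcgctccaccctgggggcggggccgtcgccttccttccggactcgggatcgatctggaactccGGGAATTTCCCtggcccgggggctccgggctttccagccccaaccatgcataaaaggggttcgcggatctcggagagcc
VAV3, chr1:107688500-107688749, minus strand: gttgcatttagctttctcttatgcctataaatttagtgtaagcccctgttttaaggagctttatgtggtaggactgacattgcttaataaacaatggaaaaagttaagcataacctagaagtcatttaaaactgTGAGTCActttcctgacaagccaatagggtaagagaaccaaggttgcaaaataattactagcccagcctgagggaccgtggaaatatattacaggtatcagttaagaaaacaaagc

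EGFR ligand genes were higher after EGF. Of 7 tested, 4 were regulated, all higher, next to 1.54% of all genes regulated higher. The median log2FC of the list was 1.27, against 7.3e-05 over all genes tested. AREG (ENSG00000109321, chr4:74445134-74455009, in hg38 coordinates of GENCODE 29 as for other genes), which encodes amphiregulin, was at 15.8, 16.1 and 30.4 CPM in the untreated and 87.8, 74.9 and 134 CPM in the EGF libraries (log2FC 2.28, SE 0.18, adjusted p = 1.55e-11 in edgeR). The groups did not overlap, and the third library was the highest in both. EREG, the epiregulin gene, was at 100.4, 72.6 and 137 CPM in the untreated and 281, 201 and 323 CPM in the EGF libraries (log2FC 1.39). HBEGF (log2FC 1.37) and TGFA (1.27) were also regulated and did not overlap between groups. EPGN, BTC and EGF had log2FC of 1.07, 0.17 and -0.25 and did not pass the adjusted p.

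The receptors moved less. EGFR was at 492, 407 and 443 CPM in the untreated and 679, 576 and 622 CPM in the EGF libraries (log2FC 0.49, SE 0.084, adjusted p = 5.04e-05), which is higher without overlap but below the limit of 1. ERBB3, a partner of ERBB2 in heterodimers, was lower by the adjusted p (log2FC -0.57), with overlapping groups but a fall within each same-numbered pair. ERBB2 had a log2FC of -0.12 (SE 0.14, adjusted p = 0.653). None of the 4 neuregulin genes, which encode ligands of ERBB3 and ERBB4, passed the adjusted p. This is near the background for 4 genes, with 9.82% of all genes higher and 7.18% lower by the adjusted p.

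Inhibitors at several levels of the pathway were among the higher genes. Over all genes, 1.54% were regulated higher, and by the adjusted p 9.82% were higher and 7.18% lower. ERRFI1, whose product MIG6 binds and blocks the EGFR kinase, was at 64.2, 64.2 and 73.2 CPM in the untreated and 238, 207 and 237 CPM in the EGF libraries (log2FC 1.76, SE 0.18, adjusted p = 4.14e-09). It was the only regulated gene of 8 receptor-level inhibitors, whose median log2FC was 0.16, and the ubiquitin ligase gene CBLB was lower by the adjusted p (-0.33). Of 7 Sprouty and SPRED genes, which restrain RAS activation, SPRY4 (1.62) and SPRY2 (1.27) were regulated, and SPRED1 (0.69) and SPRED2 (0.52) were higher by the adjusted p only. SPRY1, in contrast, had a log2FC of 0.0053 (adjusted p = 0.99).

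Of 9 MAP kinase phosphatase genes, 3 were regulated higher and 3 more were higher by the adjusted p. Over all genes, 1.54% were regulated higher and 9.82% were higher by the adjusted p. DUSP6, which dephosphorylates ERK in the cytoplasm, was at 28, 24.3 and 42.5 CPM in the untreated and 106, 93.3 and 140.3 CPM in the EGF libraries (log2FC 1.85, SE 0.25, adjusted p = 9.84e-07). DUSP5, an ERK phosphatase of the nucleus, had a log2FC of 1.28, and DUSP10, which acts on the stress kinases JNK and p38, of 1.04. DUSP8, another phosphatase of stress kinases, was lower (-0.38). The median of the list was 0.91.

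By the criteria for a regulated gene, the EGR family divided. EGR1 was at 97.5, 53.9 and 136 CPM in the untreated and 159.8, 117 and 159 CPM in the EGF libraries, and its log2FC of 0.63 (SE 0.26) did not pass, with an adjusted p of 0.106. Its relatives EGR2, EGR3 and EGR4 were regulated higher, with log2FC of 1.99, 1.83 and 1.37. EGR3 was at 3.47, 2.72 and 4.78 CPM in the untreated and 12.7, 11.4 and 14.7 CPM in the EGF libraries, and EGR2 at 0.523, 0.525 and 0.918 CPM in the untreated and 2.91, 2.34 and 2.28 CPM in the EGF libraries. All EGF libraries of the 3 regulated genes were above all untreated ones, whereas those of EGR1 overlapped. Within each same-numbered pair EGR1 was also higher with EGF, and its effect was not tested against those of its relatives.

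Of 10 AP-1 genes, FOSL1 and MAFF were regulated higher, next to 1.54% of all genes. FOS, the prototype of the immediate early genes, was at 13.5, 13.9 and 13 CPM in the untreated and 12.5, 15.6 and 12.7 CPM in the EGF libraries (log2FC -0.0019, SE 0.12, adjusted p = 0.997), which overlap. FOSL1 encodes FRA-1, a later partner of JUN, and was at 421, 413 and 388 CPM in the untreated and 995, 908 and 825 CPM in the EGF libraries (log2FC 1.15, SE 0.24, adjusted p = 0.000615). JUN had a log2FC of 0.99 and passed the adjusted p only, and JUND was lower by the adjusted p (-0.27). Of 18 other immediate early genes, 13 were higher by the adjusted p and none was lower, next to 9.82% and 7.18% of all genes. The median of the list was 0.62. PHLDA1 (1.5), TRIB1 (1.18) and IER3 (1.04) passed the limit of 1. MCL1, a survival factor of the BCL2 family, was at 643, 644 and 694 CPM in the untreated and 1139, 1189 and 1221 CPM in the EGF libraries (log2FC 0.84).

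MYC was regulated, at 55.5, 54.9 and 46.1 CPM in the untreated and 146, 135 and 111 CPM in the EGF libraries (log2FC 1.32, SE 0.15, adjusted p = 1.6e-08). The genes of its antagonists MXD3 and MXD4 were lower by the adjusted p, with log2FC of -0.74 and -0.29. ETS1 was the only regulated gene of 9 ETS factors (1.32), and the epithelial factor ELF3 was lower by the adjusted p (-0.72). Of 12 KLF genes, KLF6 (1.23) and KLF7 (1.15) were regulated. Over all genes, 1.54% were regulated higher and 7.18% were lower by the adjusted p. SNAI2, a repressor of epithelial adhesion genes, was at 13.7, 12.5 and 10.7 CPM in the untreated and 33.8, 30.9 and 26.3 CPM in the EGF libraries (log2FC 1.3), and ZEB1 was higher by the adjusted p (0.81). TWIST1 met the criteria on 2, 6 and 1 counts in untreated and 5, 25 and 11 counts in EGF libraries, which overlap, and lost the call without replicate 1 (adjusted p = 0.0543), without replicate 3 (0.179) and without the pairing (0.132).

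**Figure D2:**
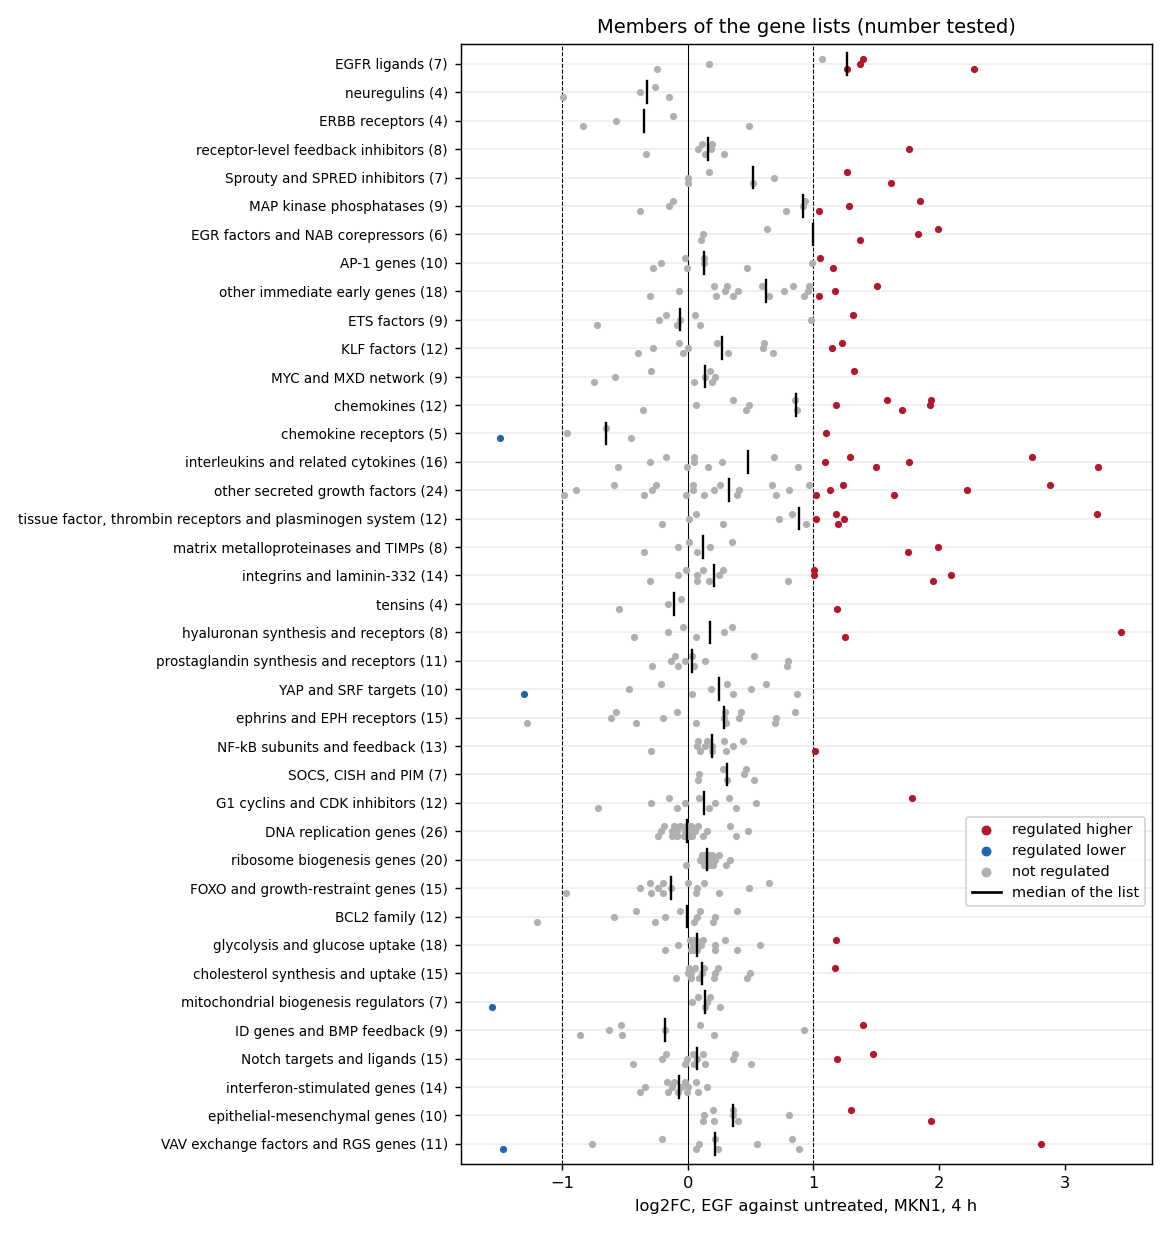
Each row is a gene list with the number of members tested, each point a member at its log2FC of EGF against untreated at 4 h, and each black bar the median of the list. Regulated members (red, higher) are frequent among EGFR ligands, chemokines, cytokines and the plasminogen system. The 26 DNA replication genes and 14 interferon-stimulated genes have none, which is near the background with 1.98% of all genes regulated.

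Genes of secreted signals held many regulated members. Of 12 chemokine genes, 5 were regulated, all higher, next to 1.54% of all genes regulated higher, and the median log2FC was 0.86. CXCL8, which encodes the neutrophil attractant interleukin-8, was at 12.3, 12.1 and 10.9 CPM in the untreated and 51.1, 53.7 and 33 CPM in the EGF libraries (log2FC 1.94, SE 0.13, adjusted p = 2.01e-13). CCL2, a monocyte attractant, was at 7.88, 8.05 and 4.99 CPM in the untreated and 33.5, 29.7 and 17.1 CPM in the EGF libraries (log2FC 1.93). The third EGF library was the lowest of its group for both genes and still above every untreated library. CXCL1 (1.58) and CXCL3 (1.7) were regulated too, but they and CXCL2 are near copies, and the split of reads between them is uncertain. CXCL5 had overlapping groups and lost its call without replicate 1 (adjusted p = 0.20) and without the pairing (0.0527).

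CXCR4, the receptor of CXCL12, was lower, at 5.54, 5.97 and 5.72 CPM in the untreated and 1.77, 2.01 and 2.42 CPM in the EGF libraries (log2FC -1.5, SE 0.15, adjusted p = 1.51e-09). The groups were apart by more than their range. ACKR3, a second receptor of CXCL12, was lower by the adjusted p (-0.65). CCR7 was called higher on 14, 8 and 13 counts in untreated and 42, 26 and 19 counts in EGF libraries, and this call was lost without replicate 1 (adjusted p = 0.289) and without replicate 2 (0.0617).

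Of 16 interleukin and related cytokine genes, 6 were regulated, all higher, next to 1.54% of all genes regulated higher. CSF2, the gene of GM-CSF, was at 2.15, 2.7 and 3.35 CPM in the untreated and 18.5, 20.3 and 15.6 CPM in the EGF libraries (log2FC 2.74, SE 0.21, adjusted p = 6.62e-12). LIF and IL11, of the IL-6 family, had log2FC of 1.76 and 1.5, whereas IL6 itself had -0.17 and did not pass. LIF was at 18.3, 20.9 and 20.7 CPM in the untreated and 72.2, 67.3 and 62.5 CPM in the EGF libraries. IL1B (1.29) and TNFSF15 (1.09) were regulated at low levels and lost the call without replicate 1 (IL1B, adjusted p = 0.0627) or without replicate 3 (TNFSF15, 0.0589). IL33, also among the 6, had 3, 1 and 1 counts in untreated and 31, 15 and 12 counts in EGF libraries and met the criteria. Its untreated counts were below the filter minimum of 10 and its EGF counts above it. Its call therefore adds no support, and no fold is given for it.

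Of 24 other genes of secreted growth factors, 6 were regulated, all higher, next to 1.54% of all genes regulated higher. ESM1, which encodes the proteoglycan endocan, was at 4.01, 4.55 and 1.67 CPM in the untreated and 30.6, 32.9 and 12.5 CPM in the EGF libraries (log2FC 2.88, SE 0.30, adjusted p = 5.38e-09). PTHLH, the gene of parathyroid hormone-related protein, was at 96.5, 85.1 and 93.6 CPM in the untreated and 528, 411 and 358 CPM in the EGF libraries (log2FC 2.22). In ESM1 the third library was the lowest of both groups, and the change within its pair was of like size. WNT9A was at 208, 186 and 221 CPM in the untreated and 508, 442 and 504 CPM in the EGF libraries (log2FC 1.24, SE 0.045), and STC1 had a log2FC of 1.64. FGF19 and GDF15 were called with log2FC of 1.13 and 1.02. FGF19 lost the call without replicate 3 (adjusted p = 0.0696), and GDF15 without replicate 1 (0.0581) and without the pairing (0.278). VEGFA (0.80) and VEGFC (0.96) passed the adjusted p only. None of this list was called lower, but 1 was with only the compared groups fitted, with scaling by library size alone, and without replicate 2 or 3.

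Of 9 ID and BMP feedback genes, 5 were lower and 2 higher by the adjusted p, next to 7.18% and 9.82% of all genes. The median log2FC of the list was -0.18. The BMP ligand gene BMP4, of the secreted growth factors, was at 130.3, 128 and 92.8 CPM in the untreated and 53.6, 69.2 and 53.5 CPM in the EGF libraries (log2FC -0.99, SE 0.076, adjusted p = 5.98e-12), just inside the limit of -1. The BMP targets ID1 (-0.52), ID2 (-0.53), ID3 (-0.86) and SMAD6 (-0.62) were lower in all EGF than in all untreated libraries. Over all genes tested, the groups did not overlap in 21.8%, in either direction. The gene of the secreted BMP antagonist noggin, NOG, was regulated higher, at 10.3, 11.7 and 12.7 CPM in the untreated and 26.8, 33.1 and 31.8 CPM in the EGF libraries (log2FC 1.4), and GREM1, another antagonist gene, had 0.93. Of 15 Notch genes, the ligand gene JAG1 (1.47) and the feedback gene NRARP (1.19) were regulated higher, next to 1.54% of all genes. JAG2 was lower by the adjusted p (-0.44).

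Of 12 genes of tissue factor, thrombin receptors and the plasminogen system, 5 were regulated higher, next to 1.54% of all genes. By the adjusted p, 9 were higher and none lower, next to 9.82% and 7.18% of all genes, with a median of 0.89. SERPINB2 (ENSG00000197632, chr18:63871692-63903890), which encodes the plasminogen activator inhibitor PAI-2, was at 0.639, 0.65 and 0.756 CPM in the untreated and 6.72, 6.75 and 6.04 CPM in the EGF libraries (log2FC 3.26, SE 0.20, adjusted p = 2.12e-14). PLAUR, the urokinase receptor gene, had a log2FC of 1.24, and PLAT, the tissue plasminogen activator gene, passed the adjusted p with 0.94. F2RL1 (1.19) and THBD (1.02) were regulated as well. Of 8 metalloproteinase and TIMP genes, 2 were regulated higher, next to the same 1.54% of all genes. MMP9 was at 1.3, 0.825 and 1.43 CPM in the untreated and 4.8, 3.62 and 3.35 CPM in the EGF libraries (log2FC 1.75). MMP3 was called on 6, 9 and 5 against 41, 29 and 21 counts and lost its call without replicate 1 (adjusted p = 0.101). Its untreated counts were below the filter minimum of 10 and its EGF counts above it, so its call adds no support.

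Of 14 integrin and laminin genes tested, 7 were higher and none lower by the adjusted p, next to 9.82% and 7.18% of all genes. LAMA3 (ENSG00000053747, chr18:23689443-23956222), which encodes a laminin chain of epithelial basement membranes, was at 172, 183 and 289 CPM in the untreated and 891, 754 and 1068 CPM in the EGF libraries (log2FC 2.09, SE 0.10, adjusted p = 1.06e-16). LAMB3, another laminin gene, lay at the limit of 1, with a log2FC of 1.0, and fell below it under several settings (0.90 with scaling by library size alone). ITGA2, which encodes a chain of a collagen-binding integrin, was at 64.9, 67.4 and 129 CPM in the untreated and 279, 276 and 419.7 CPM in the EGF libraries (log2FC 1.95). Of the tensins, which bind integrin tails, TNS4 was regulated higher (1.19) and TNS3 was lower by the adjusted p (-0.55).

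HAS2 (ENSG00000170961, chr8:121612116-121641390), the gene of a hyaluronan synthase, led the 15 largest rises among the 167 higher genes whose mean log2 CPM exceeded 1. It was at 0.697, 0.35 and 0.999 CPM in the untreated and 10.8, 4.83 and 6.8 CPM in the EGF libraries (log2FC 3.45, SE 0.27, adjusted p = 6.95e-12). HAS3 was regulated too (1.25). The hyaluronan receptor gene CD44 was higher (0.36) and HMMR lower (-0.43) by the adjusted p only. None of 11 prostaglandin genes was regulated, with PTGS2, the cyclooxygenase-2 gene, at a log2FC of 0.80. With 1.98% of all genes regulated, this count is near the background. Of 10 YAP and SRF targets, 1 was regulated (AJUBA, lower), and CYR61 (0.51) and CTGF (0.62) were higher by the adjusted p.

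Of 20 ribosome biogenesis genes, 7 were higher and none lower by the adjusted p, next to 9.82% and 7.18% of all genes, with a median log2FC of 0.16. Of 26 DNA replication genes, 1 was higher and 2 were lower by the adjusted p, with a median of -0.0012. None of either list was regulated, and with 1.98% of all genes regulated a count of 0 in lists of this size is near the background. Of 12 G1 cyclins and CDK inhibitors, 1 was regulated: CDKN1A, which encodes the cell cycle inhibitor p21, was at 34.9, 43.3 and 63.6 CPM in the untreated and 136, 156 and 185 CPM in the EGF libraries (log2FC 1.78, SE 0.083, adjusted p = 6.4e-17). In the same list, CDKN1B (-0.29) and CDKN2C (-0.71) were lower by the adjusted p. TXNIP, a restraint on glucose uptake, was lower by the adjusted p (-0.97).

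In metabolism, PFKFB4 (1.18) of 18 glycolysis genes was regulated. None of 12 BCL2 family, 15 ephrin and EPH, 15 FOXO and growth-restraint, 7 SOCS, CISH and PIM and 14 interferon-stimulated genes was regulated. With 1.98% of all genes regulated, this is near the background for lists of this size. Of the 14 interferon-stimulated genes none passed the adjusted p, next to 9.82% higher and 7.18% lower over all genes. Of 13 NF-kB genes, the feedback inhibitor TNFAIP3 was regulated (1.01). Over all lists, markers included, 68 of 471 tested genes were regulated, and the lists were chosen with earlier results of these data known.

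The other genes among the 15 largest rises were of mixed function. DHRS9, a short-chain dehydrogenase gene, was at 0.755, 0.55 and 3.19 CPM in the untreated and 9.7, 5.5 and 15.1 CPM in the EGF libraries (log2FC 2.97), with the third pair the highest in both groups. AKAP12 (ENSG00000131016, chr6:151239999-151358557), which encodes a scaffold of protein kinases A and C, was at 236, 183 and 274 CPM in the untreated and 1120, 807 and 990.1 CPM in the EGF libraries (log2FC 2.08, SE 0.13). RGS4, which speeds GTP hydrolysis on G protein alpha subunits, was at 3.02, 3.6 and 4.18 CPM in the untreated and 32.6, 20 and 23.6 CPM in the EGF libraries (log2FC 2.81). The groups of all these genes were apart. The log2FC was 2.54 for the serine protease gene PRSS22, 2.13 for PRR9, 2.07 for the cell surface gene LYPD3 and 2.23 for the lincRNA AC112721.2. KRTAP2-3 (2.67) has near copies in its family, and its counts are uncertain.

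The 10 largest falls among the 16 lower genes at that level were smaller, with log2FC from -1.55 to -1.19. PPARGC1A, a coactivator of mitochondrial biogenesis, was at 4.79, 4.15 and 3.59 CPM in the untreated and 1.62, 1.51 and 1.07 CPM in the EGF libraries (log2FC -1.55, SE 0.16, adjusted p = 3.69e-09). VAV3, a guanine nucleotide exchange factor gene, was at 14.6, 10.5 and 14.6 CPM in the untreated and 4.63, 3.93 and 5.9 CPM in the EGF libraries (log2FC -1.47), while VAV2 was higher by the adjusted p (0.22). In both genes that fell, every EGF library was below every untreated one. PTCH1, the hedgehog receptor gene, was at 32.2, 23.6 and 30.8 CPM in the untreated and 13.3, 10.6 and 13.2 CPM in the EGF libraries (log2FC -1.22, SE 0.081). AJUBA, a LIM protein of cell junctions, had a log2FC of -1.3, ZNF608 of -1.43, KLHDC7A of -1.35, the ubiquitin ligase gene RNF144B of -1.22, the lincRNA LINC01391 of -1.22 and TRMT9B of -1.19. None of the 25 largest rises and falls overlapped between groups, and over all genes tested 21.8% did not overlap. The 25 were chosen by log2FC and direction in these same libraries, which favours groups that are apart, so this adds no support.

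**Figure D3:**
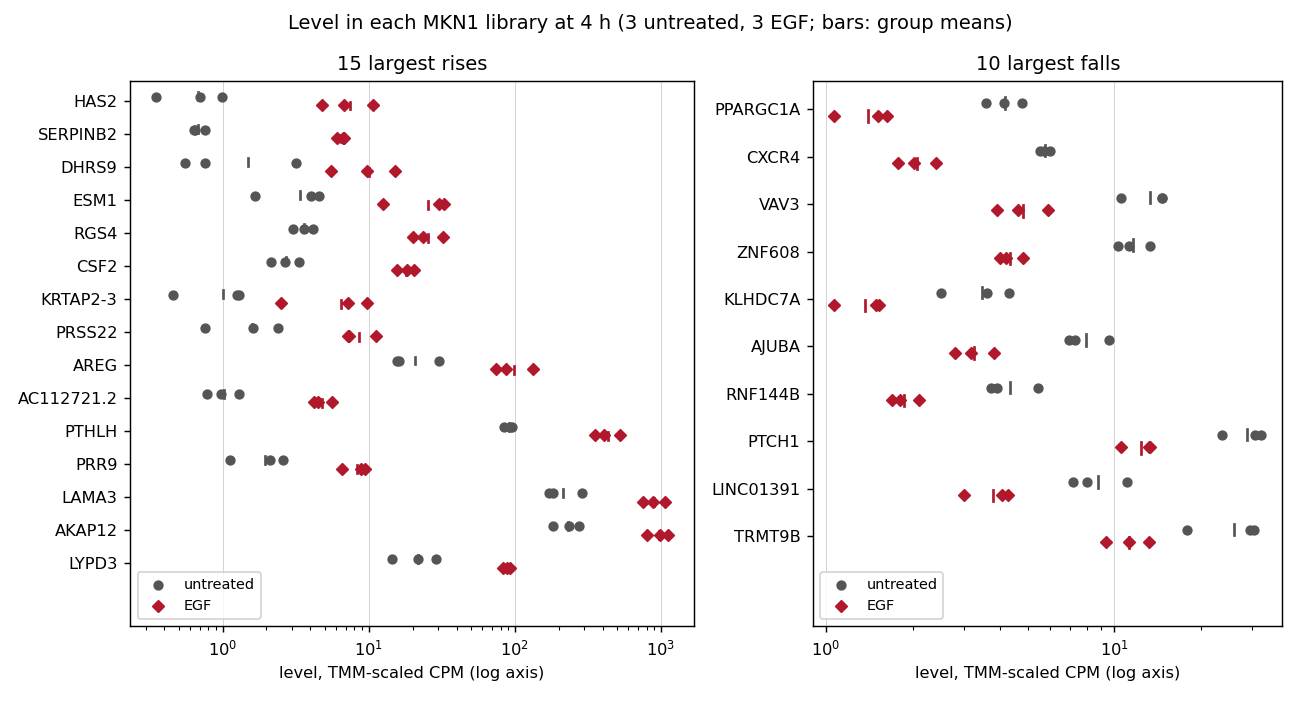
Level of the 15 largest rises (left) and the 10 largest falls (right) in each library in TMM-scaled CPM on a log axis, with grey circles for 3 untreated and red diamonds for 3 EGF libraries and bars at the group means. The 2 groups are apart in each of the 25 genes, which their choice by log2FC and direction in these libraries favours. HAS2 is at the top, at 0.697, 0.35 and 0.999 CPM without and 10.8, 4.83 and 6.8 CPM with EGF.

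The EGF effect at 24 h was measured in 6 other MKN1 libraries. There, 1856 genes were regulated (9.37% of 19815), 451 higher and 1405 lower. Of the 306 genes higher at 4 h, 139 (45.4%) were regulated higher at 24 h, where 2.28% of all genes were. Of the 86 lower genes, 33 (38.4%) were regulated lower at 24 h, against 7.09% of all. The median log2FC of the 306 genes was 1.37 at 4 h and 0.95 at 24 h, and choosing genes by the 4 h value favours a smaller value at 24 h.

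The difference between the times was tested gene by gene as an interaction, in which 137 genes had a more positive and 770 a more negative effect at 24 h (4.58% of those tested, 0.691% and 3.89%). Of the 306 genes, 72 had a more negative and 18 a more positive effect at 24 h by these criteria, a description since the 4 h effect chose them. EGR2 was at 5.0, 1.39 and 2.13 CPM in untreated and at 0.664, 0.772 and 1.2 CPM in EGF libraries at 24 h, a log2FC of -1.69, and the difference from 4 h was -3.68 (SE 0.54, adjusted p = 5.62e-06). Its groups at 24 h lay in the order opposite to that at 4 h. EGR3 and EGR4 had log2FC of -0.35 and -0.0011 at 24 h. CDKN1A was at 28, 31.5 and 32.4 CPM without and at 32.5, 42.9 and 38.1 CPM with EGF at 24 h (log2FC 0.30, difference -1.48, adjusted p = 5.08e-11). TNFSF15 turned from 1.09 to -1.48, and PRSS22 went from 2.54 to 0.33.

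Other effects were larger at 24 h. PRR9 had a log2FC of 4.28 at 24 h against 2.13 at 4 h, NOG of 2.88 against 1.4, TNS4 of 2.65 against 1.19 and IL1B of 3.07 against 1.29, and each difference passed. Among the falls, RNF144B reached -2.65 and TRMT9B -2.67. Some members below the limit at 4 h differed as well: VIM, the vimentin gene, went from 0.40 to 1.71, ID3 from -0.86 to -2.61, ACKR3 from -0.65 to -1.86 and DUSP2 from 0.79 to -0.67. AREG (1.88), CXCL8 (1.68), LAMA3 (2.17), SERPINB2 (3.82) and MYC (1.34) were regulated at both times and did not pass the test of the difference. The ribosome biogenesis genes had a median of 0.16 at 4 h and 0.69 at 24 h.

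Hs746T is an established gastric cancer line, described in the study as not responsive to cetuximab, and received EGF at the same dose for 4 h in DMEM medium. None of 20278 genes was regulated there by edgeR. An unadjusted p below 0.05 was found for 3386 genes, more than the share of 0.05 expected if no gene changed. Small effects in this line are therefore not excluded. By the adjusted p alone, 2 genes passed (0.00986%), both lower. FBXO32, a ubiquitin ligase gene known as a FOXO target, was at 133, 94.5 and 107 CPM without and at 104, 64.7 and 72.1 CPM with EGF (log2FC -0.48, adjusted p = 8.66e-06), and SLC27A3 had a log2FC of -0.70 (adjusted p = 0.0169). The untreated and EGF libraries of FBXO32 overlapped, and within each same-numbered pair the EGF library was the lower. EGFR was present in Hs746T, at 264, 277 and 249 CPM in untreated libraries, against 475, 397 and 427 CPM in MKN1 in the same fit.

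The effects in both lines were compared as an interaction, in which 316 genes differed (1.56%), 270 of them with a more negative effect in Hs746T (1.33%). The 305 higher genes that were tested in this fit had a median log2FC of -0.0040 in Hs746T, and 205 of them had a more negative effect there, again a description, since the MKN1 effect chose them. AREG was at 6.95, 7.38 and 7.01 CPM without and at 8.5, 8.62 and 9.36 CPM with EGF in Hs746T, and the difference of its effect from MKN1 was -1.97 (SE 0.16, adjusted p = 7.43e-12). HAS2 was at 29.3, 13.8 and 11.1 CPM without and at 36.1, 13.5 and 13 CPM with EGF, and its effect differed by -3.32. CXCR4, KLHDC7A and LINC01391 did not pass this test. In untreated Hs746T libraries, CXCR4 was at 0.0182, 0.0484 and 0 CPM and KLHDC7A at 0.0727, 0.113 and 0.0369 CPM. LINC01391 was at 0.236, 0.339 and 0.221 CPM there. At such low levels the test could show little, and like falls in both lines do not follow.

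**Figure D4:**
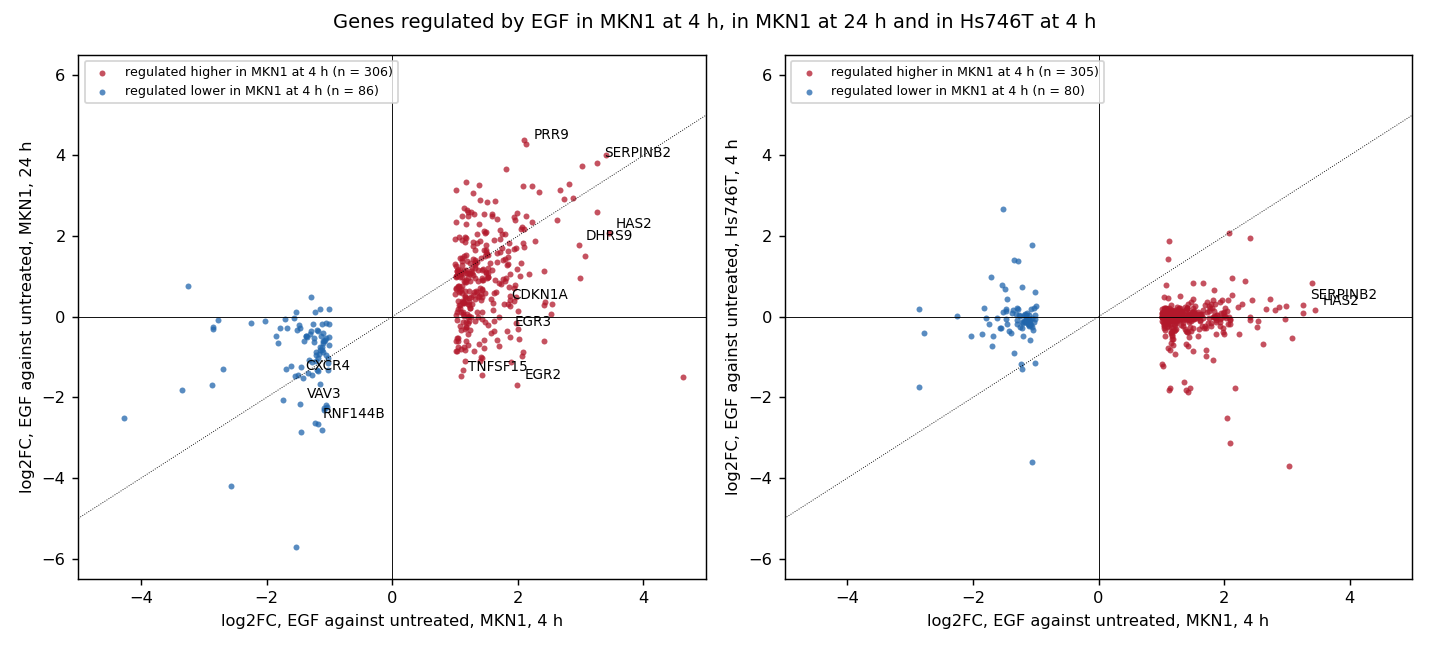
Each point is a gene regulated by EGF in MKN1 at 4 h (red higher, blue lower), at its log2FC there (x axis) and its log2FC in MKN1 at 24 h (left) or in Hs746T at 4 h (right, 305 and 80 genes tested), with the dotted line at equal values. At 24 h the higher genes spread from EGR2 at -1.69 to PRR9 at 4.28 and beyond, and in Hs746T most higher genes lie near 0, with a median of -0.0040.

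Cetuximab (1 μg/ml) was added together with EGF in 3 MKN1 libraries at 4 h and given alone in 3 others. These comparisons share the EGF or the untreated libraries with the one above, so values are set side by side. AREG was at 38.8, 43.9 and 77.4 CPM with EGF + cetuximab and at 3.82, 6.12 and 6.16 CPM with cetuximab alone. DUSP6 was at 74.8, 67.7 and 111 CPM with EGF + cetuximab and at 4.66, 6.94 and 5.75 CPM with cetuximab alone. For both genes, the level with cetuximab alone was below every untreated library, and that of EGF + cetuximab was above every untreated library. SERPINB2 was at 1.31, 1.41 and 0.906 CPM with EGF + cetuximab, which is above its untreated and far below its EGF level (log2FC against EGF -2.43, SE 0.18, adjusted p = 7.04e-11). EGR1 was at 9.91, 14.3 and 12.4 CPM with cetuximab alone.

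Against EGF, 56 genes were lower (0.283%) and 9 higher (0.0454%) with EGF + cetuximab, in all 0.328% of those tested, and by the adjusted p alone 2.97% were lower and 1.02% higher. Among members, HAS2 (-1.97), AKAP12 (-1.44), NRARP (-1.21), LAMA3 (-1.09) and CCL2 (-1.03) were lower by more than 1. CDKN1A (-0.97) and AREG (-0.92) were lower by the adjusted p only. The log2FC of DUSP6 (-0.43), SPRY4 (-0.29), FOSL1 (-0.32) and MYC (-0.36) did not pass. Of the falls, AJUBA (0.84) and PTCH1 (0.40) were higher by the adjusted p when cetuximab was added, and CXCR4 (0.47) and VAV3 (0.43) did not pass. CXCR4 was at 12.9, 12.6 and 14.2 CPM with cetuximab alone, at 14.6, 14.8 and 16.2 CPM with the ERBB kinase inhibitor afatinib (0.5 μM) and at 4.72, 5.87 and 5.81 CPM with the ERBB2 antibody trastuzumab (5 μg/ml). The first pair of treatments left it above every untreated library, and the trastuzumab libraries overlapped with the untreated ones.

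**Figure D5:**
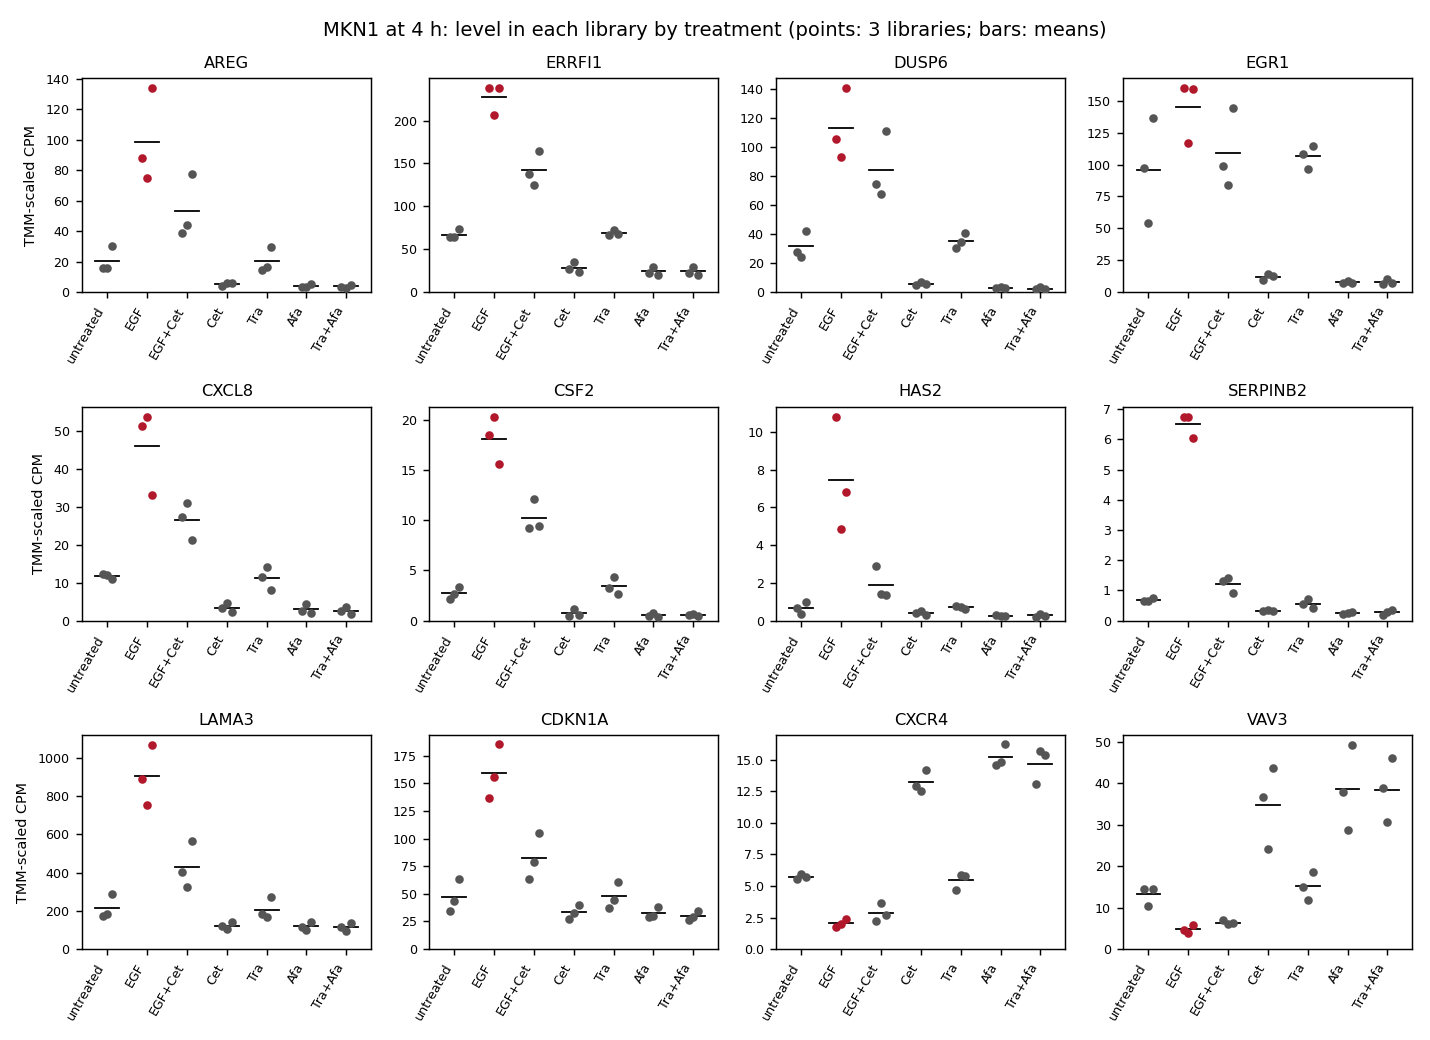
TMM-scaled CPM of 12 genes in each of 3 libraries of the 7 MKN1 treatments at 4 h (Cet, cetuximab; Tra, trastuzumab; Afa, afatinib), with bars at the means, axes from 0 and EGF in red. The 10 genes higher with EGF, or in the case of EGR1 not passing the test, have their lowest means with cetuximab, afatinib or trastuzumab + afatinib, and CXCR4 and VAV3 have their highest means there and their lowest with EGF.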

How the data were processed

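RNA was taken from MKN1 cells with and without EGF, enriched for polyA RNA, made into libraries with a directional kit and sequenced paired end on an Illumina NovaSeq. Tools named by the submitters' processing notes are STAR and Trim Galore with hg38. The counting tool, its strand setting and its annotation release are not given in the sources used here. The deposited values are raw counts per gene, and the 37 mitochondrial genes were at 0 in the 6 libraries. Names, types and positions came from GENCODE 29, in which 8404 of 65217 identifiers were not found (0.0357% of the counts).

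Counts of all 42 MKN1 libraries were filtered with filterByExpr (minimum count 10, minimum total 15), scaled by TMM and fitted with edgeR 4.0.16 in R 4.3.3 by the quasi-likelihood test, with 1 mean per treatment and time and the replicate number within the time point as a block. The effects in both lines were fitted on the 42 libraries of MKN1 and Hs746T at 4 h, with the replicate number within the line as a block. Same-numbered untreated and EGF libraries at 4 h deviated together from their group means (r = 0.292, 0.357 and 0.318), and other combinations did not (-0.229 to -0.115). Deviations from a group mean cancel out over the 3 libraries. The negative values therefore follow in part from the positive ones and are no separate check. The pairing comes from the replicate numbers in the labels and the values of the same-numbered libraries. Levels are TMM-scaled CPM, and those of markers are per library size. Replicate libraries differed by far more than sampling noise. Named genes were the 15 largest rises and 10 largest falls with a mean log2 CPM above 1 and the same direction in 3 pairs, and members of the gene lists. Members and lists were chosen with earlier results of these data known. Alternatives were fits without the block, of the compared groups only, with DESeq2 1.42.0, with library size scaling, with other filters and without each replicate. The procedure was tested on simulated data.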

Additional observations from a re-analysis of the deposited data

Results flagged for a closer look

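The effect of EGF differed between 24 h and 4 h in MKN1 for 907 genes and between Hs746T and MKN1 at 4 h for 316 genes, each by an interaction test in edgeR at an adjusted p below 0.05 and a difference above 1 or below -1 on the log2 scale. The genes below were named for their effect in MKN1 at 4 h, which enters both differences.

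For genes higher at 4 h, the effect at 24 h was more negative and its log2FC below 0 for EGR2 (difference -3.68), TNFSF15 (-2.56), EGR3 (-2.19), GDF15 (-1.61), PFKFB4 (-1.43) and EGR4 (-1.37, from a log2FC of -0.0011 at 24 h). It was smaller and still above 0 for PRSS22 (-2.21), CDKN1A (-1.48), HAS2 (-1.38), CCL2 (-1.23), DHRS9 (-1.20), NRARP (-1.11) and WNT9A (-1.02). It was larger for PRR9 (2.15), IL1B (1.78), NOG (1.49), TNS4 (1.46) and AC112721.2 (1.02). For RNF144B (-1.42) and TRMT9B (-1.48), which were lower at 4 h, the fall was deeper at 24 h.

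In Hs746T, the effect on genes higher in MKN1 was smaller for HAS2 (difference -3.32), DHRS9 (-3.01), SERPINB2 (-2.96), RGS4 (-2.66), AC112721.2 (-2.65), ESM1 (-2.64), PRSS22 (-2.64), KRTAP2-3 (-2.50), CSF2 (-2.30), LAMA3 (-2.27), LYPD3 (-2.24), AKAP12 (-2.08), PTHLH (-1.99), AREG (-1.97) and PRR9 (-1.59). The levels in untreated Hs746T libraries varied widely. AC112721.2 was near the floor there (0.2, 0.0645 and 0 CPM), so an effect could hardly be measured. PRR9, DHRS9 and LYPD3 were low, with means of 0.252, 0.42 and 0.493 CPM, and ESM1 and RGS4 were at means of 294.5 and 106.3 CPM. On genes lower in MKN1, the effect was less negative for VAV3 (1.67), PPARGC1A (1.28), AJUBA (1.24), PTCH1 (1.09), TRMT9B (1.08) and ZNF608 (1.07).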

How the results depend on the processing

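EGF against untreated at 4 h gave 392 genes (306 higher, 86 lower). Without the replicate block there were 293 genes (244 higher, 49 lower), with scaling by library size alone 406 (247 higher, 159 lower), and with at least 10 counts in every library 264 (232 higher, 32 lower). Without 1 replicate, the total was 252 to 378, the higher genes 207 to 307 and the lower genes 45 to 71. The lowest count, 252, came without replicate 1, and 226 of these genes were called in the same direction with all replicates. The difference between 24 h and 4 h (907 genes, 137 higher and 770 lower) fell to 535 genes (78 higher, 457 lower) without the replicate block, had 88 higher genes with at least 10 counts in every library, and ranged over 438 to 1071 genes (86 to 157 higher, 352 to 914 lower) without 1 replicate, lowest without replicate 1. The difference between Hs746T and MKN1 (316 genes, 46 higher and 270 lower) fell to 119 genes (11 higher, 108 lower) without the replicate block and to 209 genes (23 higher) with at least 10 counts in every library, had 72 higher genes with library size scaling, and ranged over 214 to 269 genes (23 to 48 higher, 191 to 229 lower) without 1 replicate. DESeq2 called 328, 867 and 279 genes for the 3 results. Of 81 named genes and regulated list members, none changed direction in the settings in which it was tested (75 genes with at least 10 counts in every library, 80 with only the compared groups fitted and 80 without replicate 2), and 76 kept the call without the replicate block, 71 with library size scaling (among others, DUSP10, MAFF, IER3, CCR7, TNFSF15, GDF15, THBD, LAMB3 and TNFAIP3 fell below the limit), 78 with DESeq2 and 70 without replicate 1. The cause of these shifts was not tested.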

Other observations

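Some regulated genes outside the lists are given here, chosen after their values were seen. The noncoding genes MIR31HG and MIR100HG, which host microRNAs, were higher after 4 h of EGF, MIR31HG at 10.7, 11.1 and 11.9 CPM in the untreated and 34.5, 32.6 and 29.8 CPM in the EGF libraries (log2FC 1.52) and MIR100HG at 4.07, 4.27 and 5.32 CPM in the untreated and 15.1, 12.9 and 14.2 CPM in the EGF libraries (log2FC 1.63, 2.88 at 24 h). HMGA2, an architectural chromatin protein, was at 59.6, 63.6 and 64.8 CPM in the untreated and 172, 162 and 155 CPM in the EGF libraries (log2FC 1.38, 2.29 at 24 h). The groups were apart in all 3 genes. The receptor genes IL6R (1.13) and GHR (1.17) and the kinase gene SGK1 (1.49) were regulated higher at 4 h.

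Several rises at 4 h had the opposite sign at 24 h. DSC2, a desmosomal cadherin gene, was at 0.949, 0.875 and 2.32 CPM in the untreated and 3.63, 3.77 and 7.46 CPM in the EGF libraries at 4 h (log2FC 1.87) and had a log2FC of -0.50 at 24 h. TRPV3, an ion channel gene, went from 1.68 to -0.59, MAST4 from 1.13 to -1.32, TRIML2 from 1.62 to -0.36 and the T-box factor gene TBX3 from 1.52 to -0.20, and the interaction test passed for each of these 5 genes. Among the falls, the AP-1 repressor gene JDP2 had a log2FC of -1.15, SP5 of -1.09, the homeobox gene LHX4 of -1.11 and PLEKHS1 of -1.08 (-2.32 at 24 h).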
